A study of Homo sapiens with 6 samples.

Results

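Immediate early genes and the feedback genes of the mitogen-activated protein kinase (MAPK) pathway were followed in RKO, an established human line of colon carcinoma cells, given either EZA or the solvent DMSO. The 40 members were chosen by name, through the symbols that GENCODE 44 gives to the Ensembl identifiers of the table, and all 40 had a row among the 58735 of the table. Each group held 3 libraries of polyadenylated RNA, called biological replicates by the study; whether each came from its own culture is not said, and the p-values cover the spread among these libraries alone. What the abbreviation EZA stands for, its dose and how long the cells were treated are not stated in the labels. Each group is 1 cell line without any genetic change made by the study, and RKO carries an activating BRAF mutation as background.

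Growth factors, serum and stress switch on immediate early genes through MAPK cascades without new protein synthesis, and the products are mostly transcription factors such as FOS, JUN and EGR1. Signalling through RAF, MEK and ERK also induces its own brakes: DUSP phosphatases remove phosphate from MAPKs, and Sprouty (SPRY) and SPRED proteins act upstream at the level of RAS and RAF. In cells with activated BRAF, transcripts of DUSP6, SPRY4, ETV4, ETV5, PHLDA1 and EPHA2 are widely used as a readout of ERK output.

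Libraries held 14070611 to 18840954 counts, and 13503 genes had enough counts to be tested. Of the 8 epithelial markers, 4 were tested (EPCAM, KRT8, KRT18 and CDX2). All 8 summed to 163 to 183 CPM, read counts normalised to library size, in DMSO and to 167 to 196 CPM in EZA; CDH1 had 0 counts and KRT19, VIL1 and KRT20 were near 0. Fibroblast markers summed to at most 0.353 CPM, leukocyte markers to at most 2.29 CPM and endothelial markers to at most 0.707 CPM in any library. EZA replicate 3 stood apart: mitochondrial genes took 0.203% of its counts, against 3.68% to 5.02% in the other 5 libraries. Fold changes over all protein-coding genes also rose with the GC content of the transcript, from a median log2 fold change of -0.31 at up to 40% GC to 0.44 above 60%. Values without EZA replicate 3 stand beside many of the results they change, and the members called without it are listed further below. GC-corrected values, also given for many results, come from a fit with each library's trend in GC content and transcript length removed.

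Most of the module was not called, and its most abundant members, among them JUN, SPRY4, PHLDA1, ZFP36L1 and FOSL1, all missed the threshold. KLF2, a zinc finger transcription factor, rose 3.12-fold, and JUND, IER3, KLF6 and the ERK phosphatase gene DUSP5 rose by 1.39- to 1.87-fold. ETV1, an ETS-family factor, fell, to a level 1.77-fold lower than in DMSO. In edgeR's quasi-likelihood test with Benjamini-Hochberg adjustment over all genes tested (adjusted p below 0.05), 5 of the 38 tested members (13.2%) were higher, where 9.89% of all genes tested were higher. In the other direction 1 member (2.63%) was lower, where 7.82% of all genes were lower. In either direction this made 15.8% of the tested members, against 17.7% of all genes. The median log2 fold change was 0.12 over the 38 members and -0.01 over all genes. CPM are shares of a library, so fewer cells of a kind and less RNA per cell cannot be told apart in any of these values.

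The 6 calls differed in how they bore other settings. KLF2 was called in each of 14 alternatives. It was the single member called without DMSO replicate 1 (1.15% of all genes higher, 0.451% lower), without DMSO replicate 2 (3.54% and 2.17%) and without DMSO replicate 3 (1.31% and 0.529%). Without EZA replicate 3, 12 members were higher and 1 lower, where 19.1% and 19.2% of all genes were. GC-corrected values called 4 members higher (KLF2, KLF6, DUSP16 and ETV5), where 6.57% of all genes were, and 0 lower, where 4.82% of all genes were. At an unadjusted p below 0.05, the uncorrected edgeR fit with all libraries had 9 members higher and 1 lower. Of all 13503 genes 2431 were higher and 2245 lower there. GC-corrected, the counts of members were 9 and 6. The share of all genes at that threshold was not computed for the GC-corrected fit, so these counts cannot be read as a result about the members. DESeq2 called 7 higher and 1 lower, where 12.8% and 10.1% of all genes were. KLF2 was the single member past the study's own threshold, which asks for a log2 change of 1 or more in size at an unadjusted p below 0.05; 5.73% of all genes passed it, 3.77% upward and 1.96% downward.

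**Figure D1:**
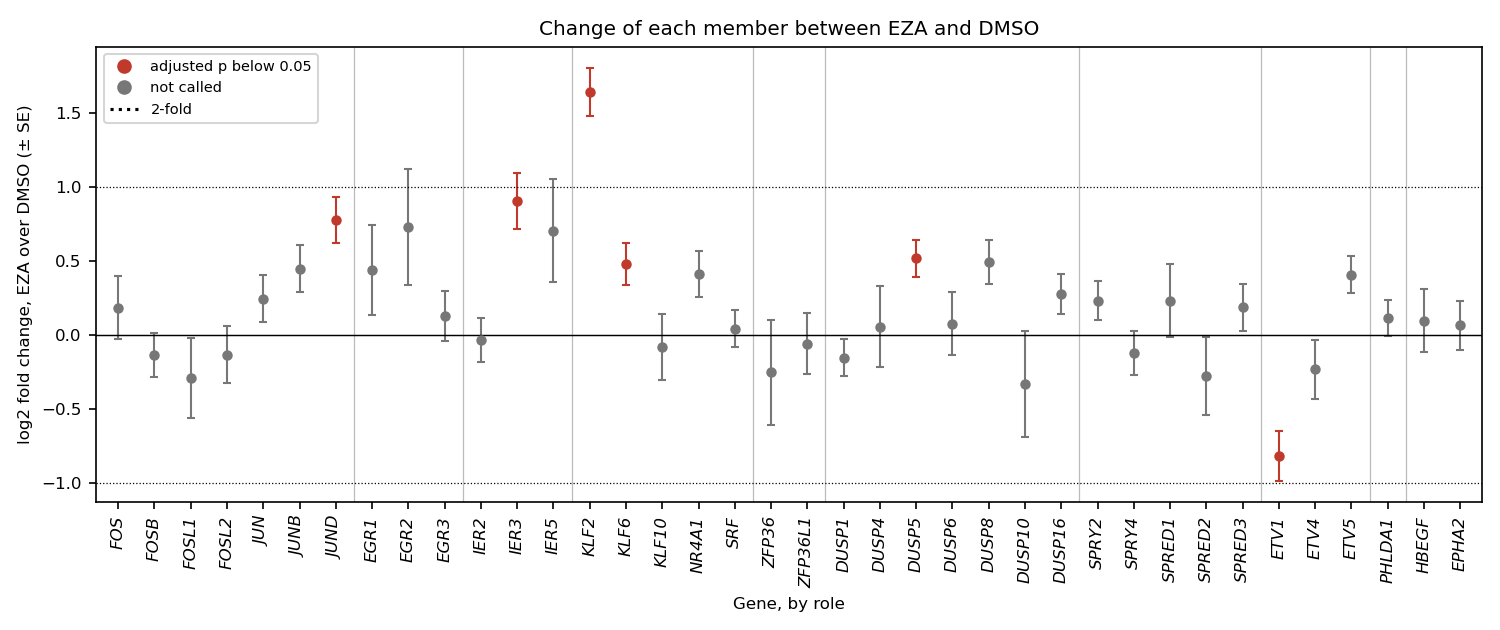
Points give the log2 fold change, EZA over DMSO, of the 38 tested members in order of role, with whiskers for 1 SE; red marks an edgeR adjusted p below 0.05 and dotted lines mark a 2-fold change. KLF2 lies at 1.64 and ETV1 at -0.82, and most of the other members lie within 0.5 of 0.

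Ligands and receptors came first in the pathway, and here the autocrine ligands were scarce. AREG and EREG, which encode the epidermal growth factor receptor (EGFR) ligands amphiregulin and epiregulin, did not have enough counts to be tested. AREG had 16 counts over all DMSO libraries and 15 over all EZA libraries. EREG had 2 counts in DMSO and 0 in EZA, where 3 counts of the total would be 0.0613 CPM (counting error only). HBEGF, the heparin-binding EGFR ligand, had 9.82, 11.04 and 11.2 CPM in DMSO replicates 1 to 3 and 9.46, 9.55 and 15.3 CPM in EZA replicates 1 to 3. EZA replicate 3 lay above all DMSO libraries and the other EZA libraries below them (log2 fold change 0.10 ± 0.22, SE; edgeR adjusted p = 0.787). EPHA2, a receptor tyrosine kinase for ephrins, was far more abundant, at 317, 399 and 334 CPM in DMSO and 361, 303 and 434 CPM in EZA. Its groups overlapped (log2 fold change 0.07 ± 0.17, adjusted p = 0.812). GC-corrected, EPHA2 was at -0.23 with all libraries (edgeR adjusted p = 0.230) and at -0.33 without EZA replicate 3 (adjusted p = 0.000362).

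AP-1 is a dimer of FOS-family and JUN-family proteins that binds the motif TGANTCA. On the deposited FPKM scale, which divides by gene length, JUN and FOSL1 made up most of the family in RKO: JUN had 249 ± 20.6 FPKM in DMSO (SD, n = 3) and FOSL1 197 ± 16.3 FPKM, together with shares of 50.1% and 39.7% of the summed FPKM of the 7 genes. JUNB at 22.95 and JUND at 18.2 FPKM followed, and their DMSO ranges overlapped. FOSB, FOS and FOSL2 were at 6.66, 2.01 and 1.23 FPKM, each apart from its neighbour in this order. FOS itself, the founding immediate early gene, was therefore among the least abundant members of its family in both groups.

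JUND, an AP-1 subunit that many cells express without stimulation (ENSG00000130522, chromosome 19, 18279694 to 18281622, minus strand, GRCh38), was the AP-1 gene that rose. It had 29.1, 37.03 and 37.6 CPM in DMSO replicates 1 to 3 and 52.3, 58.9 and 66.3 CPM in EZA replicates 1 to 3. Every EZA library lay above every DMSO library, and EZA replicate 3 was the highest. The log2 fold change was 0.78 ± 0.15 (SE; edgeR adjusted p = 0.0144). The call was lost without DMSO replicate 1, 2 or 3 (log2 fold changes 0.66, 0.84 and 0.84; adjusted p up to 0.0856). Its transcript has a GC content of 69.9%, the highest of the members, and GC-corrected its log2 fold change was 0.10 (adjusted p = 0.571).

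The 250 bases before the start of JUND, from RefSeq on GRCh38.p14 (chr19:18281623-18281872, minus strand), are shown because they hold a full cAMP response element, TGACGTCA, the motif bound by CREB and ATF factors and by JUN-ATF dimers; capitals mark it, read 5′ to 3′.
JUND: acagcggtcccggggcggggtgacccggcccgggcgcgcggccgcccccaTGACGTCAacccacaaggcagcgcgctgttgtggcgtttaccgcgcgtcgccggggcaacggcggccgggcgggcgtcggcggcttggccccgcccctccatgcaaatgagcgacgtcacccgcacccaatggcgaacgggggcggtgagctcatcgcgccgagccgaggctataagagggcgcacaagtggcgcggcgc

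RefSeq windows were at hand for 32 of the 40 members and for 9931 tested genes, and both strands were searched over these 250 bases. The element TGACGTCA was found before 5 of the 32 members (JUND, DUSP1, DUSP8, AREG and EPHA2; 15.6%) and before 2.90% of the tested genes. The 32 members include AREG and EREG, which were not tested, so the 2 shares cover slightly different kinds of genes. TGANTCA was found before 0 of 32 members and 3.59% of tested genes. The core of the amino acid response element, TGATGNAA, which ATF4 dimers bind, was found before 0 members and 1.30% of tested genes. These matches describe letters in a window; a match is not a binding site, and these windows do not cover enhancers or sites further upstream. DUSP4, DUSP5, ETV4, ETV5, EGR3, IER3, FOSL1 and KLF10 were not in the promoter table.

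The other JUN genes leaned the same way without passing. JUNB was at 34.3, 50.4 and 43.02 CPM in DMSO and 59.3, 61.6 and 53.3 CPM in EZA. Its groups did not overlap (log2 fold change 0.45 ± 0.16; adjusted p = 0.0855), and it passed without EZA replicate 3 (log2 fold change 0.51, adjusted p = 0.00162) but lay at -0.04 when GC-corrected. JUN was at 831, 972 and 889.6 CPM in DMSO and 1074, 906 and 1213 CPM in EZA, where EZA replicate 2 fell within the DMSO range (log2 fold change 0.25 ± 0.16; adjusted p = 0.297). JUNB overlaps HOOK2 on the opposite strand, and the libraries do not mark strand.

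Of the 4 FOS-family genes 0 passed in edgeR with all libraries, where 17.7% of all genes did. At an unadjusted p below 0.05 the count was also 0, where 2431 of all 13503 genes were higher and 2245 lower. DESeq2 called 0, where 12.8% of all genes were higher and 10.1% lower. A count of 0 among 4 genes says little beside these shares. GC-corrected without EZA replicate 3, FOSB and FOSL1 were called lower, where 20.2% of all genes were higher and 18.4% lower. FOSL1, which encodes FRA1, an AP-1 subunit kept high by sustained ERK signalling, was at 353, 412 and 372 CPM in DMSO and 389, 369 and 172 CPM in EZA. EZA replicates 1 and 2 sat inside the DMSO range and EZA replicate 3 far below it. The log2 fold change was -0.29 ± 0.27 with all libraries (adjusted p = 0.479) and 0.00 without EZA replicate 3. GC-corrected, FOSL1 was at -0.59 with all libraries (edgeR adjusted p = 0.192) and at -0.30 without EZA replicate 3 (adjusted p = 0.000426). FOS had 5.38, 7.72 and 6.84 CPM in DMSO and 8.95, 7.40 and 6.29 CPM in EZA, with overlapping groups (log2 fold change 0.18 ± 0.21; adjusted p = 0.566). FOSB and FOSL2 had log2 fold changes of -0.14 ± 0.15 and -0.13 ± 0.19. Counts of FOSB are uncertain, since it overlaps ERCC1 on the opposite strand, which held 35996 counts against 3438 of FOSB.

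EGR1, a zinc finger factor that serum and ERK induce within minutes, differed more between EZA libraries than between the groups. It had 147, 189.9 and 164 CPM in DMSO replicates 1 to 3 and 336, 220.1 and 122 CPM in EZA replicates 1 to 3. EZA replicates 1 and 2 lay above all DMSO libraries and EZA replicate 3 below all of them. The log2 fold change was 0.44 ± 0.31 (adjusted p = 0.343), and without EZA replicate 3 it was 0.74 (adjusted p = 0.00473). EGR2, its low-abundance relative, was higher in EZA replicates 1 and 2 alone, with EZA replicate 3 inside the DMSO range, at 0.939, 1.60 and 0.767 CPM in DMSO and 2.16, 2.15 and 1.13 CPM in EZA (log2 fold change 0.73 ± 0.39, adjusted p = 0.217; 0.97 and 0.0315 without EZA replicate 3). EGR3 had 15.8, 14.2 and 14.1 CPM in DMSO and 19.6, 14.6 and 13.9 CPM in EZA, and its groups overlapped (log2 fold change 0.13 ± 0.17). On the FPKM scale EGR1 made up 94.1% of the summed level of the EGR genes in DMSO.

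The CArG box, which the serum response factor SRF binds together with ERK-phosphorylated ELK factors, was found before 2 of the 32 members, EGR1 and SRF, and before 0.967% of tested genes. Both sites of EGR1 (chr5:138465374-138465383 and chr5:138465396-138465405, plus strand, GRCh38.p14) are shown in capitals with 10 bases on each side, as the textbook route from ERK to an immediate early gene.
EGR1 distal: gccggtcctgCCATATTAGGgcttcctgct
EGR1 proximal: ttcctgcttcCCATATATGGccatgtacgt
SRF, whose own promoter holds 2 such boxes (chr6:43171239-43171248 and chr6:43171259-43171268, plus strand), was at 116, 140.3 and 137 CPM in DMSO and 141, 139 and 124 CPM in EZA, with overlapping groups (log2 fold change 0.04 ± 0.13; adjusted p = 0.845). In this fit SRF thus differed by less than the spread between replicates. GC-corrected, SRF was at -0.26 with all libraries (edgeR adjusted p = 0.151) and at -0.16 without EZA replicate 3 (adjusted p = 0.0395).

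Of the IER genes, which encode small proteins induced early after stimulation, IER3 rose. IER3, a stress-inducible regulator of cell survival (ENSG00000137331, chromosome 6, 30743199 to 30744548, minus strand), had 44.2, 48.6 and 41.4 CPM in DMSO and 91.04, 99.9 and 60.02 CPM in EZA. All 3 EZA libraries lay above the DMSO libraries, with EZA replicate 3 nearest to them (log2 fold change 0.90 ± 0.19; edgeR adjusted p = 0.0177). The call was lost without DMSO replicate 1, 2 or 3 (adjusted p up to 0.0996; log2 fold changes 0.89, 0.98 and 0.85) and when GC-corrected (0.61; adjusted p = 0.0610).

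With all libraries and the filter on low counts, IER2 and IER5 were not called. IER2, a nuclear protein, had 79.3, 99.6 and 85.7 CPM in DMSO and 97.4, 87.7 and 73.4 CPM in EZA, with overlapping groups (log2 fold change -0.03 ± 0.15). GC-corrected, IER2 was at -0.46 with all libraries (edgeR adjusted p = 0.0806) and at -0.31 without EZA replicate 3 (adjusted p = 0.00118). IER5, which promotes the activity of the heat shock factor HSF1, had 22.9, 28.2 and 30.4 CPM in DMSO and 29.3, 28.99 and 74.7 CPM in EZA. The single high value of IER5 was that of EZA replicate 3, and its log2 fold change of 0.70 ± 0.35 (adjusted p = 0.188) was 0.10 without this library. With no filter on low counts IER5 was called (0.69; edgeR adjusted p = 0.0197).

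Among the remaining immediate early factors KLF2 showed the largest change of the module. KLF2 encodes a Krüppel-like zinc finger factor known for its induction through the MEK5-ERK5 arm of MAPK signalling and through MEF2 factors (ENSG00000127528, chromosome 19, 16324826 to 16328685, plus strand). It had 10.3, 14.5 and 12.3 CPM in DMSO replicates 1 to 3 and 36.8, 36.4 and 42.6 CPM in EZA replicates 1 to 3. The 3 EZA libraries, EZA replicate 3 included, lay well above the DMSO libraries. The log2 fold change was 1.64 ± 0.16 (SE; edgeR adjusted p = 0.00108). Over 14 alternatives it lay between 1.25 and 1.79 with an adjusted p of at most 0.0146. Its transcript has a GC content of 61.2%, a range where the median protein-coding gene was at 0.44, and GC-corrected KLF2 was at 1.29 (adjusted p = 0.00125).

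KLF6, a Krüppel-like factor that restrains proliferation (ENSG00000067082, chromosome 10, 3775996 to 3785281, minus strand), rose less. It had 37.9, 35.4 and 38.1 CPM in DMSO and 51.7, 44.6 and 58.9 CPM in EZA, without overlap (log2 fold change 0.48 ± 0.14; adjusted p = 0.0480). This call was lost without any 1 of the DMSO replicates and without EZA replicate 1 (log2 fold changes 0.49, 0.46, 0.50 and 0.48; adjusted p up to 0.169), with scaling by library size alone (0.0765) and in limma-voom (0.0518). The transcript has a lower GC content, 45.7%, and GC-corrected its log2 fold change was 0.61 (adjusted p = 0.0242).

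The 250 bases before the start of KLF2 (chr19:16324576-16324825, plus strand) and a short stretch before the RefSeq start of KLF6 (chr10:3785266-3785274 for the site, minus strand; RefSeq, GRCh38.p14) are shown because these are the called members whose windows hold the EGR site GCGNGGGCG, in capitals. The RefSeq start of KLF6 lies 72 bases inside the GENCODE gene, and the site lies within those bases.
KLF2: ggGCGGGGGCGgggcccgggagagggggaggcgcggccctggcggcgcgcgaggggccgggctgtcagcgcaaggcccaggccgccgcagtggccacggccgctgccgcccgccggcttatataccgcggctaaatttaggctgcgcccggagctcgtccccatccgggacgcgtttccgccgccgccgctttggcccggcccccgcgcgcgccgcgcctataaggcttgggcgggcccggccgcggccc
KLF6 site: ggggagccagGCGGGGGCGgagggggagg
GCGNGGGCG stood before 7 of the 32 members (21.9%: EGR1, KLF2, KLF6, SRF, DUSP16, SPRY2 and SPRY4) and before 14.3% of tested genes. For SPRY4 the site (chr5:142324434-142324442, minus strand) lies inside the GENCODE gene (142310427 to 142326455), before a RefSeq start within it. The windows of KLF2 and KLF6 have a GC content of 80% and 72.4%.

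KLF10, NR4A1 and the mRNA decay genes did not pass in edgeR with all libraries. NR4A1, an orphan nuclear receptor, was at 10.9, 11.1 and 9.91 CPM in DMSO and 15.4, 14.7 and 12.4 CPM in EZA, without overlap (log2 fold change 0.41 ± 0.16; adjusted p = 0.0967). It was called without EZA replicate 3 (adjusted p = 0.00811) and lay at 0.06 when GC-corrected. KLF10, a factor induced by TGF-beta, had 72.01, 64.4 and 62.8 CPM in DMSO and 76.9, 71.1 and 40.3 CPM in EZA, where EZA replicate 3 was below all other libraries (log2 fold change -0.08 ± 0.22). Without EZA replicate 3 KLF10 was at 0.16 (edgeR adjusted p = 0.282). GC-corrected as well, KLF10 was called higher at 0.28 (edgeR adjusted p = 0.00360). ZFP36 and ZFP36L1 encode proteins that bind AU-rich elements and speed the decay of immediate early transcripts. ZFP36L1 had 542, 605 and 570.4 CPM in DMSO and 718, 541 and 390.1 CPM in EZA, with a DMSO range lying inside that of EZA (log2 fold change -0.06 ± 0.21; adjusted p = 0.871). ZFP36 was at 15.1, 13.02 and 12.8 CPM in DMSO and 16.1, 13.3 and 4.88 CPM in EZA, again lowest in EZA replicate 3 (log2 fold change -0.25 ± 0.35).

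**Figure D2:**
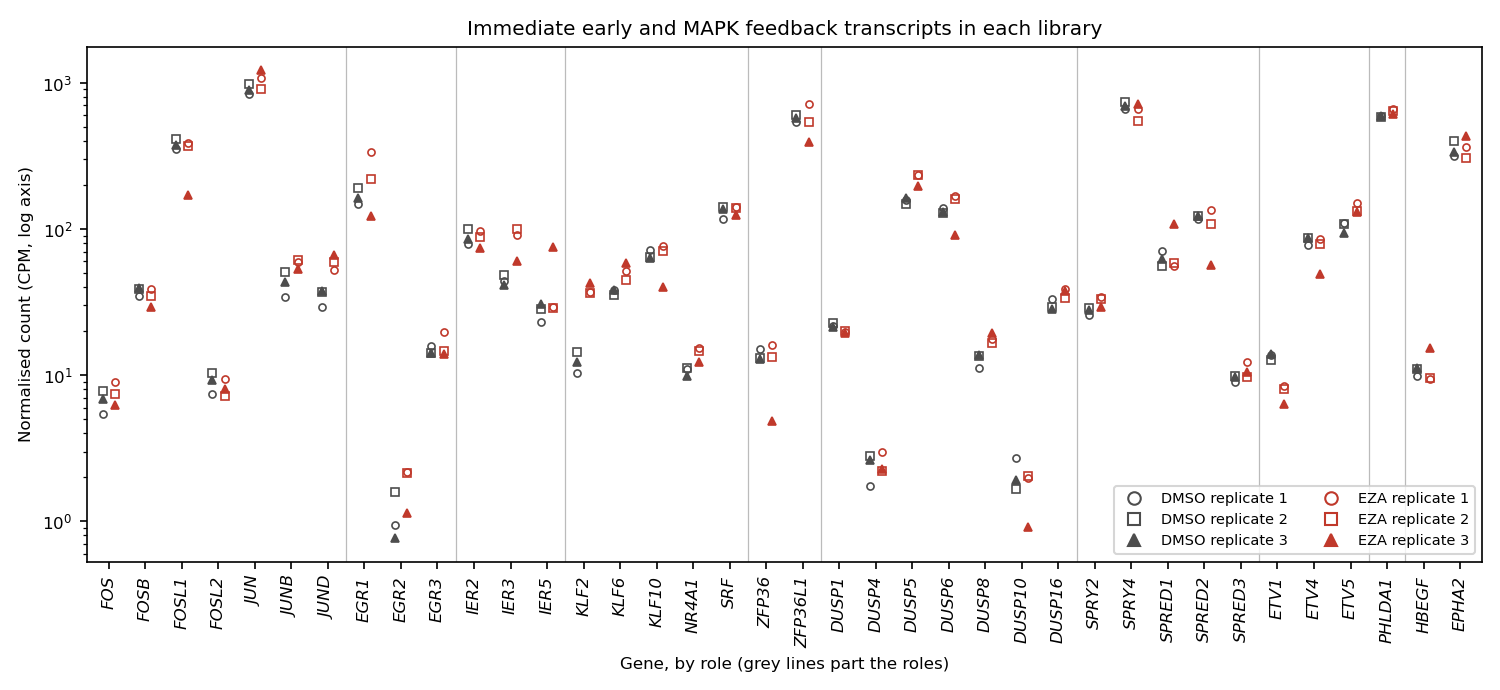
Each point is 1 library, on a logarithmic axis of normalised counts (CPM), for the 38 tested members in order of role; grey is DMSO, red is EZA and filled triangles are the third replicate of each group. KLF2 shows a clear gap between groups (14.5 CPM at most in DMSO, 36.4 CPM at least in EZA), while FOSL1, EGR1, IER5, ZFP36 and SPRED2 show EZA replicate 3 apart from the other EZA libraries.

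The DUSP genes encode phosphatases that inactivate MAPKs. On the FPKM scale DUSP5, at 58.3 ± 2.22 FPKM in DMSO (SD, n = 3), and DUSP6, at 27.9 ± 1.19 FPKM, held 55.1% and 26.4% of the summed FPKM of the 7 genes; both act on ERK, DUSP5 in the nucleus and DUSP6 in the cytoplasm. DUSP1, DUSP16, DUSP8, DUSP10 and DUSP4 followed in this order, from 10.6 to 0.324 FPKM, and the DMSO ranges of neighbours did not overlap. DUSP4, an ERK target in many BRAF-mutant lines, was the lowest.

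DUSP5 rose (ENSG00000138166, chromosome 10, 110497907 to 110511533, plus strand). It had 156, 148 and 162 CPM in DMSO and 235, 235 and 197 CPM in EZA, and every EZA library was above every DMSO library, EZA replicate 3 being the lowest of the 3. The log2 fold change was 0.52 ± 0.12 (SE; edgeR adjusted p = 0.0262). It was not called without DMSO replicate 1, 2 or 3 or without EZA replicate 1 or 2 (log2 fold changes from 0.48 up, adjusted p up to 0.121), nor when GC-corrected (0.33; adjusted p = 0.0786). Without EZA replicate 3 and GC-corrected it was called at 0.40.

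DUSP6, the ERK-specific feedback phosphatase, was not called. It had 138, 128 and 129.9 CPM in DMSO and 167, 159.8 and 90.4 CPM in EZA, so that EZA replicates 1 and 2 lay above all DMSO libraries and EZA replicate 3 below them. The log2 fold change was 0.08 ± 0.21 (adjusted p = 0.834) and, without EZA replicate 3, 0.31 (adjusted p = 0.0180). EGR1 and DUSP6 were the 2 members with this split between EZA libraries, which 5.61% of all genes tested showed.

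DUSP8, DUSP10 and DUSP16 encode phosphatases with a preference for JNK and p38. DUSP8 had 11.2, 13.4 and 13.7 CPM in DMSO and 17.7, 16.7 and 19.5 CPM in EZA, without overlap, and just missed the threshold (log2 fold change 0.49 ± 0.15; adjusted p = 0.0535). It passed without EZA replicate 3 (0.0184) and in DESeq2 (0.0308), and GC-corrected its log2 fold change was 0.00; its transcript has a GC content of 66.3%. Its promoter holds 2 copies of the cAMP response element (chr11:1572382-1572389 and chr11:1572338-1572345, minus strand), shown in capitals with 10 bases on each side as the single window among the members with more than 1.
DUSP8 distal: cgggctccgcTGACGTCAcctgcccccg
DUSP8 proximal: tggctgcaggTGACGTCAggggcttttt
DUSP16 was at 33.3, 29.2 and 28.3 CPM in DMSO and 38.7, 33.6 and 37.5 CPM in EZA (log2 fold change 0.28 ± 0.13; adjusted p = 0.182, and 0.0499 when GC-corrected). DUSP10 and DUSP4 were at 0.919 to 2.98 CPM in all libraries, with overlapping groups. DUSP1, an early phosphatase for p38 and JNK that carries 1 such element in its promoter, had 21.6, 22.5 and 21.3 CPM in DMSO and 19.6, 19.9 and 19.3 CPM in EZA; each EZA library was lower, by a small step (log2 fold change -0.15 ± 0.12; adjusted p = 0.413).

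Of the Sprouty and SPRED genes, brakes on RAS and RAF, 0 of 5 passed in edgeR with all libraries, where 17.7% of all genes did. At an unadjusted p below 0.05 the count was also 0, where 2431 of all 13503 genes were higher and 2245 lower. DESeq2 called 0 of them too, where 12.8% of all genes were higher and 10.1% lower. A count of 0 among 5 genes says little beside these shares. GC-corrected without EZA replicate 3, SPRY2 and SPRED1 were called higher and SPRY4 lower, where 20.2% of all genes were higher and 18.4% lower. SPRY4 led the family with 104 ± 6.62 FPKM in DMSO (SD, n = 3), 71.8% of its summed FPKM. It had 658, 741 and 691 CPM in DMSO and 657, 546 and 719.6 CPM in EZA, where EZA replicate 3 lay within the DMSO range (log2 fold change -0.12 ± 0.15; adjusted p = 0.596). SPRY2 had 25.9, 28.7 and 27.7 CPM in DMSO and 34.2, 33.2 and 29.1 CPM in EZA, without overlap (log2 fold change 0.23 ± 0.13; adjusted p = 0.244).

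Of the SPRED genes, whose products recruit neurofibromin to RAS, SPRED1 and SPRED2 lay apart from the other EZA libraries in EZA replicate 3. SPRED1 was at 55.5, 58.04 and 107 CPM in EZA replicates 1 to 3, against 70.8, 55.4 and 61.7 CPM in DMSO. SPRED2 was at 134, 108 and 56.8 CPM in EZA, against 118, 123 and 123 CPM in DMSO. On the FPKM scale SPRED1 was the higher of the 2 in this library (12.7 against 10.8 FPKM) and the lower in the other 5. Without it their log2 fold changes were -0.14 and 0.00. GC-corrected with all libraries they were 0.63 and -0.29. GC-corrected without EZA replicate 3, SPRED1 was at 0.33 (edgeR adjusted p = 0.00120) and SPRED2 at -0.01. SPRED3 was at 9.01 to 12.3 CPM in all 6 libraries.

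ETV1, ETV4 and ETV5 form the PEA3 group of ETS factors, whose transcripts ERK signalling raises in many tumour cells. ETV4 and ETV5 carried the group in RKO, with 22.8 ± 1.37 and 17.5 ± 1.55 FPKM in DMSO (SD, n = 3), and ETV1 had 1.37 ± 0.0647 FPKM. ETV1 (ENSG00000006468, chromosome 7, 13891229 to 13991425, minus strand) fell. It had 13.8, 12.6 and 13.9 CPM in DMSO and 8.38, 8.06 and 6.36 CPM in EZA, and each EZA library was below each DMSO library. The log2 fold change was -0.82 ± 0.17 (SE; edgeR adjusted p = 0.0155). The call was lost without DMSO replicate 1, 2 or 3 (adjusted p up to 0.0873; log2 fold changes -0.80, -0.85 and -0.79). Its transcript has a GC content of 37.1%, and GC-corrected it was at -0.43 (adjusted p = 0.134).

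ETV5 leaned the other way, with 109.8, 107 and 93.6 CPM in DMSO and 150.1, 132 and 129.6 CPM in EZA. Its groups did not overlap and it missed the threshold (log2 fold change 0.41 ± 0.13; adjusted p = 0.0554). It passed without EZA replicate 3 (0.00118), in DESeq2 (0.0257) and when GC-corrected (0.0260). ETV4 had 77.96, 86.9 and 86.2 CPM in DMSO and 85.3, 78.96 and 49.2 CPM in EZA; EZA replicates 1 and 2 fell within the DMSO range and EZA replicate 3 below it (log2 fold change -0.23 ± 0.20; adjusted p = 0.431). Counts of ETV4 and ETV5 are uncertain where these genes overlap DHX8 and DGKG.

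PHLDA1, an ERK-induced protein with a pleckstrin homology-like domain, was among the most even members. It had 587, 582 and 593 CPM in DMSO and 657, 636 and 613 CPM in EZA. The EZA libraries were all above the DMSO libraries by a small step (log2 fold change 0.11 ± 0.12; adjusted p = 0.542). GC-corrected, PHLDA1 was at 0.34 with all libraries (edgeR adjusted p = 0.0603) and at 0.38 without EZA replicate 3 (adjusted p = 2.62e-05).

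In 14 of the 38 tested members (36.8%) the libraries of 1 group all lay above those of the other, as they did in 42.7% of all genes. Of these 14, 12 were higher in EZA (JUNB, JUND, IER3, KLF2, KLF6, NR4A1, DUSP5, DUSP8, DUSP16, SPRY2, ETV5 and PHLDA1; 31.6% of the members, against 21.0% of all genes) and DUSP1 and ETV1 were lower (5.26%, against 21.7%). EZA replicates 1 and 2 were both above all DMSO libraries in 15 members (39.5%, against 29.5% of all genes) and both below them in 4 (10.5%, against 30.3%). These shares are descriptions, as the members were not tested as a list.

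**Figure D3:**
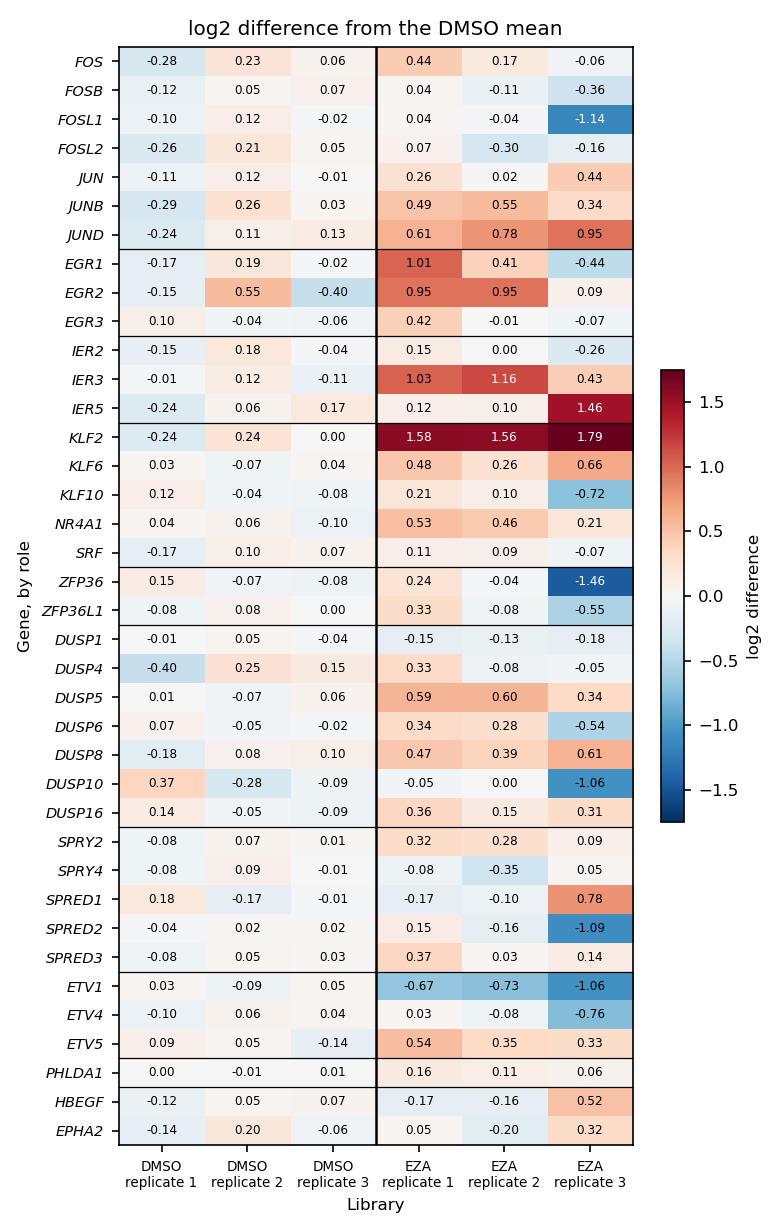
Colours and numbers give the log2 difference (log-CPM with a prior count of 2) of each library from the mean of the 3 DMSO libraries, for the 38 tested members in order of role. KLF2 is at 1.56 to 1.79 in all 3 EZA libraries, while ZFP36 and FOSL1 reach -1.46 and -1.14 and IER5 and SPRED1 reach 1.46 and 0.78 in EZA replicate 3 alone.

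EZA replicate 3 lay apart from the other EZA libraries in many members. In 11 of the 38 members (28.9%) its CPM was at least 1.5-fold lower than the mean of EZA replicates 1 and 2, where 16.5% of all genes tested were. These were ZFP36, EGR1, FOSL1, DUSP10, SPRED2, EGR2, KLF10, DUSP6, ETV4, ZFP36L1 and IER3. In 3 members (IER5, SPRED1 and HBEGF; 7.89%) it was at least 1.5-fold higher, where 14% of all genes were. The part of the low mitochondrial share of this library in these differences was not tested.

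Without EZA replicate 3, 8 of the 20 immediate early members were higher (JUNB, JUND, EGR1, EGR2, IER3, KLF2, KLF6 and NR4A1). Of the 16 feedback members DUSP5, DUSP6, DUSP8 and ETV5 were higher and ETV1 was lower. Over all genes in that fit 19.1% were higher and 19.2% lower. GC-corrected as well, the 12 members higher were EGR2, IER3, KLF2, KLF6, KLF10, DUSP5, DUSP6, DUSP16, SPRY2, SPRED1, ETV5 and PHLDA1. Under that setting 8 members were lower, FOSB, FOSL1, IER2, SRF, DUSP1, SPRY4, ETV4 and EPHA2, where 20.2% and 18.4% of all genes were higher and lower. KLF2, KLF6, IER3, DUSP5, DUSP6, ETV5 and EGR2 were called higher with and without this correction once EZA replicate 3 was left out.

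**Figure D4:**
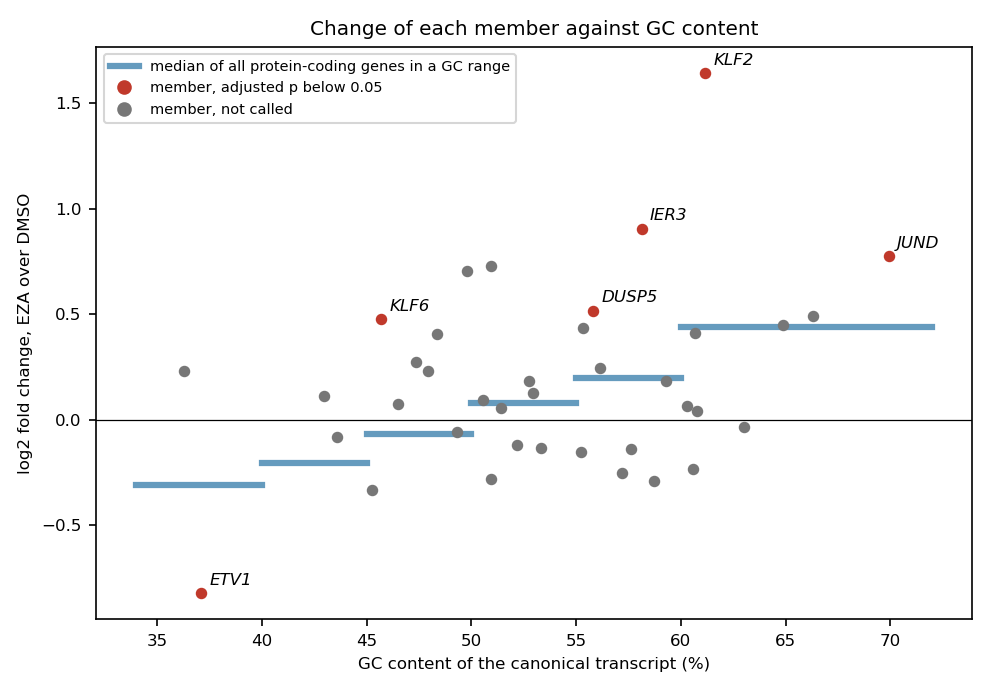
Points give the log2 fold change, EZA over DMSO, of the 38 tested members against the GC content of their canonical transcript, with called members in red and named; blue bars give the median of all protein-coding genes in each of 6 GC ranges, from -0.31 to 0.44. KLF2 and IER3 lie far above the bar of their range, while JUND at 69.9% and ETV1 at 37.1% lie near opposite ends of the GC scale.

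Other genes of the pathway were taken from lists of its kinases, brakes and targets. The shares of all genes to read each list's counts against were 9.89% higher and 7.82% lower. Of 32 tested genes of the RAS-RAF-MEK-ERK cascade 2 were higher and 2 lower. RPS6KA2, a ribosomal S6 kinase downstream of ERK, rose from 1.48 ± 0.947 to 7.35 ± 1.34 CPM (SD, n = 3 each; log2 fold change 2.30 ± 0.38, SE; edgeR adjusted p = 0.00838). MAP2K2, which encodes MEK2, rose by 0.78 on the log2 scale and was at 0.24 when GC-corrected (adjusted p = 0.136). SOS1, a RAS activator, and RASA2, a RAS GTPase-activating protein, had log2 fold changes of -0.92 ± 0.15 and -0.85 ± 0.15.

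Of 19 tested genes of the JNK and p38 cascades 5 were higher and 2 lower. GADD45A and GADD45B, which encode activators of the kinase MAP3K4, rose: GADD45A went from 79.1 ± 4.76 to 216 ± 83.6 CPM, and GADD45B from 11.8 ± 0.164 to 21.6 ± 1.72 CPM (SD, n = 3). MAPK11, which encodes p38-beta, rose by 1.42 on the log2 scale, and MAP3K4 and MAP3K1 had log2 fold changes of -0.68 ± 0.13 and -0.67 ± 0.15. GC-corrected, MAP3K1 was at -0.42 and not called. EZA replicate 3 was the highest library for GADD45A, at 312 CPM against 167 and 168 CPM in EZA replicates 1 and 2. For MAPK11 it had 68.4 CPM, against 40.9 and 43.7 CPM. Without EZA replicate 3 the log2 fold changes of GADD45A and MAPK11 were 1.09 and 1.15. GC-corrected as well they were 0.96 and 0.78, still called.

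Of 14 other tested genes of the DUSP, Sprouty and ERK feedback kind 2 were higher and 2 lower. ERRFI1, an inhibitor of EGFR, and DUSP22 rose by log2 fold changes of 0.68 ± 0.15 and 0.64 ± 0.15, and DUSP7, an ERK phosphatase, and SPRY1 fell, with -0.59 ± 0.15 and -0.66 ± 0.19; GC-corrected, SPRY1 was at -0.55 and not called. Of 20 other immediate early genes 5 were higher and 2 lower. RHOB, a small GTPase, rose from 50.04 ± 1.49 to 104 ± 11.97 CPM, and for MAFF, a small MAF factor, the means were 37.2 ± 2.40 and 75.2 ± 6.73 CPM (SD, n = 3). GEM, a GTPase, rose by 0.73 on the log2 scale, while ZFP36L2, the third ZFP36-family gene, and CCN1, a matrix protein, fell, with log2 fold changes of -0.83 ± 0.14 and -0.51 ± 0.11.

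Of 10 tested bZIP factors that can pair with AP-1 subunits, 2 were higher and 2 lower. ATF3 and JDP2, which dimerise with JUN proteins and can act as repressors, rose: ATF3 went from 2.92 ± 0.157 to 20.2 ± 1.28 CPM and JDP2 from 7.41 ± 1.01 to 42.4 ± 1.87 CPM (SD, n = 3). Their log2 fold changes were 2.79 ± 0.16 and 2.52 ± 0.15 (edgeR adjusted p = 8.31e-05 and 8.82e-05), against at most 0.78 among the 7 AP-1 members. CREB1 and ATF2 fell, by log2 fold changes of -0.54 ± 0.14 and -0.70 ± 0.18; GC-corrected they were at -0.09 and -0.33 and not called. Of the other EGFR ligands and their sheddases 1 of 4 tested genes rose, ADAM17, the protease that releases HBEGF and AREG, with a log2 fold change of 0.59 ± 0.13. Of the 23 genes named from these lists, ATF3, JDP2, RHOB and MAFF were called in each of 14 alternatives. The other 19 kept their direction without DMSO replicate 1 but lost the call, with edgeR adjusted p of 0.0546 to 0.185.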

How the data were processed

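Libraries did not mark strand, per the labels. FastQC, HISAT2, featureCounts, DESeq2 and GRCh38 are named in the submitters' processing notes; no options or annotation are stated there. The authors deposited raw counts per gene of the 6 libraries and, beside them, FPKM, per the file headers. Counts entered all tests; FPKM served only to compare levels between genes. GENCODE 44 held 58207 of the 58735 identifiers and gave symbols, positions, GC content and canonical transcript length.

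Sample titles gave groups and replicate numbers. The members and gene lists were chosen with earlier results of these data known. The main test was edgeR's robust quasi-likelihood test, two-sided, over the 13503 genes that filterByExpr retained, with TMM scaling, no covariates and Benjamini-Hochberg adjustment. SE were derived from F, and CPM from TMM-scaled totals of tested genes, at least 99.8% of each library. The fit and the trend removal were tested on simulated data. All members are named; those called, past the study's threshold or among the 2 highest of a role have every library's value, as do others that the text turns on. From each other list, up to 3 called genes per direction are named; 2 genes of the cascade list are not reported here. Alternatives were other scalings, no filter, DESeq2, limma-voom, a replicate block, GC correction (offsets from a lowess of each library's log-CPM deviations on GC content, then length, span 0.3) and each library left out. Versions were R 4.3.3 and Python 3.11.15, with edgeR 4.0.16, DESeq2 1.42.0 and limma 3.58.1.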

Additional observations from a re-analysis of the deposited data

How the results depend on the processing

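The number of all genes called, 2392 in the edgeR fit, was 220 to 5289 with 1 library left out, 1538 when GC-corrected, and 5329 GC-corrected without EZA replicate 3. Members called higher, 5 in that fit, were 1 to 12 with 1 library left out, 3 with the replicate number as a block and 12 when GC-corrected without EZA replicate 3. Members called lower, 1 in that fit, were 0 to 1 with 1 library left out, 0 when GC-corrected and 8 when also without EZA replicate 3. Without EZA replicate 1, 3 members were higher and 1 lower, where 7.07% and 4.38% of all genes were. Without EZA replicate 2 the counts were 4 and 1, where 6.79% and 3.86% of all genes were. Members past the study's threshold were 1 to 2 with 1 library left out. The share of all genes past it was not computed for these fits, so this count cannot be read as a result about the members. GC-corrected without EZA replicate 3, log2 fold changes called in 1 of these fits changed sign for KLF10 (0.28), SRF (-0.16), EPHA2 (-0.33) and CREB1 (0.0413), and JUN, ZFP36L1, DUSP10, SPRED3 and HBEGF changed sign without a call in either fit; the cause was not tested. With no filter 3323 genes were called, by DESeq2 3089, and with the replicate block 1970 (8.39% of genes higher, 6.20% lower). Deviations from the group means had correlations of 0.03, -0.17 and 0.03 between same-numbered libraries and of -0.13 to 0.17 between the others. With 3 libraries per group these values cannot show whether same-numbered libraries were paired, and the labels do not say. DUSP5 and KLF6 lost their calls under the block. Depth limits AREG and EREG, which were not tested, and EGR2, DUSP4 and DUSP10, at under 3 CPM.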
